A study of Drosophila simulans x Drosophila sechellia and Drosophila simulans x Drosophila mauritiana and Drosophila mauritiana x Drosophila simulans with 63 samples.

Results

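The Rab, Vps, Sec and Syntaxin genes of the membrane trafficking machinery were followed in single embryos of *Drosophila simulans* (*sim*), *D. sechellia* (*sec*) and *D. mauritiana* (*mau*) and in their hybrids. Members were chosen by the *D. melanogaster* symbol of their ortholog: Rab, Vps, Sec or Syx followed directly by a digit, or RabX followed by a digit. This gave 72 genes of 11315 in any of the 3 deposited tables and 66 of 10464 in all 3. Of the 72, 28 were Rab genes, 18 Vps genes, 16 Sec genes and 10 Syntaxins, and 15 lay on the X chromosome. The symbols also take in Rab3-GEF, which is not itself a Rab protein but an exchange factor. The tables held 68 members for *sim* and *mau*, 70 for *sim* and *sec*, and 66 for *sec* and *mau*. Rab1, Syx7, Vps16A and Vps4 stood only in the table of *sim* and *sec*, and Rab27 and Syx1A only in that of *sim* and *mau*.

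Poly(A) RNA was sequenced from 63 single embryos at late stage 5, after the zygotic genome has been activated, and at stage 2, when the RNA present was deposited by the mother. Each species was represented by 1 laboratory line, with 3 parental embryos per species and stage. Per the study's methods the reads of the parental embryos came from an earlier data set, so in each contrast of parents with hybrids the data set and the kind of embryo cannot be told apart. At stage 5 the hybrid embryos were F1 hybrids of 5 crosses, *sim* x *mau*, *mau* x *sim*, *sim* x *sec*, *sec* x *mau* and *mau* x *sec* (mother first, 6 embryos each). At stage 2 the hybrid embryos, 3 per cross, were laid by F1 hybrid mothers backcrossed to the maternal species, as in (*sim* x *mau*) x *sim*, so that their RNA reported the 2 alleles of the hybrid mother. The *sim* and *mau* lines carried *white* alleles and the *sec* line was wild type, per the study's methods, and no agent was given.

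Rab proteins are small GTPases that mark the identity of a membrane compartment and recruit the effectors that move, tether and dock vesicles. COPII coat proteins of the Sec family bud vesicles from the endoplasmic reticulum, the Sec61 translocon passes new proteins into it, the exocyst tethers vesicles at the plasma membrane, and Syntaxins are SNARE proteins that drive fusion. Vps proteins, first named from yeast mutants in vacuolar protein sorting, include the ESCRT complexes of the multivesicular endosome, the retromer of endosomal recycling and the HOPS and CORVET tethers. In the fly embryo this machinery supplies the membrane that encloses the nuclei during cellularization, which ends with stage 5.

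The deposited values were reads at sites that differ between 2 species, summed per gene and allele and scaled by the authors, so a gene's value also depends on its number of variant sites, and values are compared between embryos, never between genes. A change below is a log2 difference of the scaled value plus 1, tested with limma, and a gene was called at an adjusted p below 0.05 (Benjamini-Hochberg, over all genes of the comparison). Between 2146524 and 7044646 reads were counted per embryo and pair of species. The median was 3704430.5 at stage 5 and 4732387 at stage 2, with each parental embryo entered once for each of its pairs. Stage markers moved with the labels, with 8 of 8 zygotic markers higher at stage 5 in each species and 6 of 6 maternal markers lower in *sim* and *sec*, 5 of 6 in *mau*. Embryos of a group were separate animals, so p-values measure the spread between single embryos. In whole embryos, fewer cells of a type and less RNA per cell cannot be told apart.

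In 1 cross the embryos went against their sex labels. In the stage 5 *mau* x *sec* embryos labelled XX, the median share of the paternal X allele was 0.394% in replicate 4, 1.96% in replicate 5 and 31.6% in replicate 6. In those labelled XY it was 0% in replicate 1, 32.0% in replicate 2 and 32.5% in replicate 3. Replicate 5 lay between the others, with 19.7% of X-linked genes over 30% paternal reads, against 1.11% in replicate 4 and 51.4% in replicate 6. The other 24 stage 5 hybrid embryos matched their labels, with 26.9 to 35.0% in XX and 0 to 0.148% in XY embryos. X-linked members at stage 5 were taken from the hybrid embryos labelled XX. Several *mau* x *sec* values that rest on replicates 4 and 5 are given with and without them. Leaving them out leaves replicate 6 alone, assumed in the fit to vary like the other groups. Counts and medians over all members include replicates 4 and 5 unless stated. The sex of parental stage 5 embryos was not given in the sources used here.

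The first comparison asked how the level of each member changed between the maternal and the zygotic RNA complement. The members were more often lower than higher at stage 5, while all genes tested went the other way. Trafficking genes outside the symbol rule, given near the end, were also more often higher than lower. In *sim*, 18 of 63 members rose and 30 fell, against 50.3% higher and 34.4% lower of all genes. In *sec* 18 of 66 rose and 27 fell (all genes 49.0% and 33.3%), and in *mau* 17 of 63 rose and 24 fell (all genes 50.3% and 34.6%). The median member changed by -0.35 in *sim*, -0.11 in *sec* and -0.14 in *mau*, where the median of all genes was 0.44, 0.42 and 0.43. Scaling by TMM instead lowered the median of all genes by 0.29, 0.37 and 0.37, so the members are best read relative to all genes, at -0.79, -0.53 and -0.57. With TMM the counts were 13 higher and 35 lower in *sim*, 15 and 35 in *sec*, and 8 and 31 in *mau*.

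Of the 61 members tested in all 3 species, 9 were higher at stage 5 in each (41.1% of all genes) and 21 were lower in each (26.6%). The 9 were Rab2, Rab8, Rab11, Rab26, Rab35, RabX4, Rab3-GEF, Vps36 and Vps60, of which Rab8 and Rab35 were not called in all 3 species with TMM. The 21 that fell were kept with TMM: Rab6, Rab9, Rab18, Rab23, Rab30, Rab40, Sec3, Sec8, Sec15, Sec16, Sec24AB, Sec24CD, Sec63, Syx5, Syx13, Syx17, Syx18, Vps16B, Vps20, Vps24 and Vps26. Rab4 and Sec23 were called in opposite directions in 2 species (5.2% of all genes). Rab27, RabX5, Syx4 and Rab9Fb were not tested for the stage in any species because their values were too low. RabX5, Syx4 and Rab9Fb had a median of 0 variant sites in every pair with both references. Their values therefore do not tell a low level from a lack of sites.

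**Figure D1:**
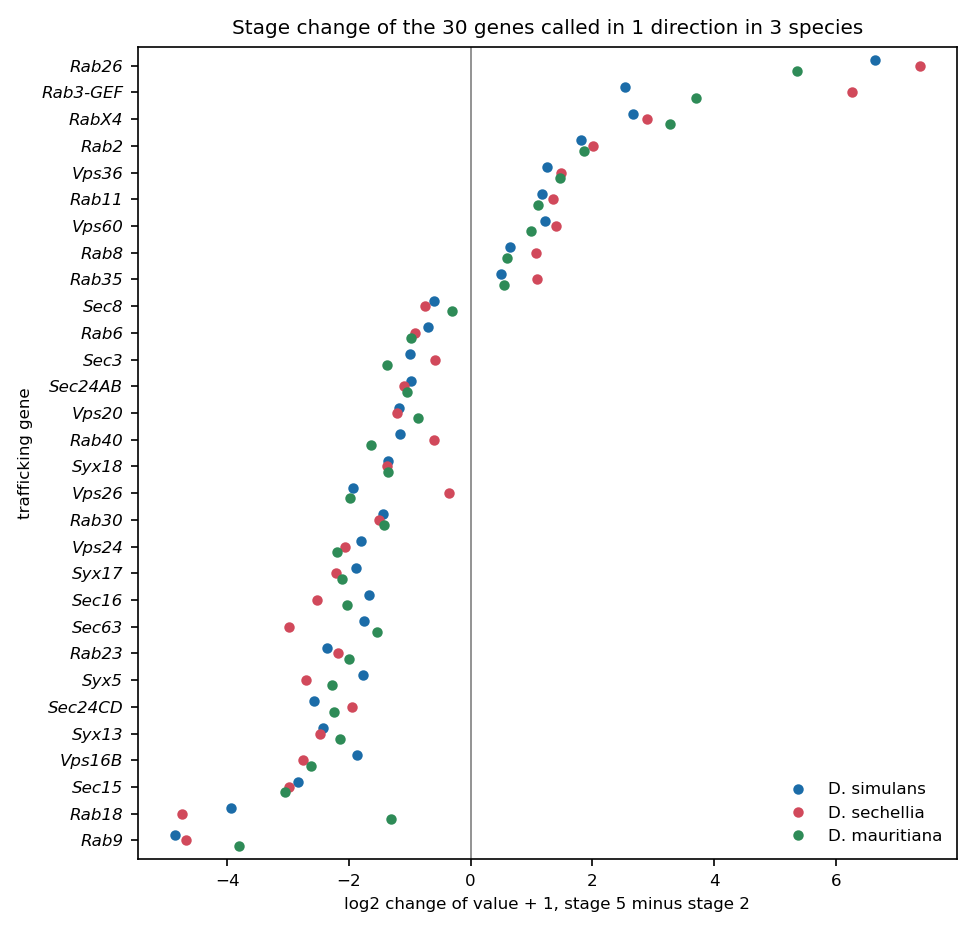
Change between stages of the 30 members called in 1 direction in all 3 species. The x axis is the log2 change of the scaled value plus 1, stage 5 minus stage 2, the points are the 3 species, and 9 genes lie to the right of 0 and 21 to the left, from Rab26 at 5.36 to 7.38 down to Rab9 at -4.86 to -3.81.

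Rab26, a Rab of regulated secretory granules, was measured in the parental stage 5 embryos and had no read in any parental stage 2 embryo. *sim* embryos had 119.9, 93.2 and 87.4 scaled reads at stage 5, against 0, 0 and 0 at stage 2. *sec* had 97.6, 222 and 209 against 0, 0 and 0, and *mau* had 34.1, 34.9 and 53.5 against 0, 0 and 0. Against a floor of 3 reads over the stage 2 group, stage 5 was at least 133-fold higher in *sim*, 268-fold in *sec* and 51.6-fold in *mau*. RabX4 was low but not silent at stage 2. It had 66.9, 67.3 and 57.6 scaled reads at stage 5 in *sim*, against 4.47, 11.2 and 14.7 at stage 2, a change of 2.67 (SE 0.35, adjusted p = 5.14e-06). The change was 2.90 in *sec* and 3.28 in *mau*, and the stages did not overlap in any species.

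Among the Rabs of general traffic, Rab2 and Rab11 rose in all 3 species. Rab2, which acts at the Golgi and in the delivery of cargo to lysosomes, had 859.6, 975 and 1076 scaled reads in *sim* at stage 5, against 272, 236 and 323 at stage 2. Its change was 1.81 (SE 0.14, adjusted p = 1.29e-08) in *sim*, 2.00 in *sec* and 1.87 in *mau*. Rab11 marks the recycling endosome and is needed for membrane delivery during cellularization. It had 2579, 2441 and 2413 scaled reads in *sec* at stage 5, against 897, 1003 and 1002 at stage 2. Its change was 1.36 in *sec*, 1.18 in *sim* (adjusted p = 8.21e-08) and 1.10 in *mau*. In these tables all stage 5 embryos lay above all stage 2 embryos of their species for both genes. Vps36, an ESCRT-II subunit that in flies also takes part in anchoring bicoid mRNA, had 233, 187 and 239 scaled reads in *mau* at stage 5, against 86.8, 62.1 and 89.1 at stage 2. Its change was 1.47 in *mau*, 1.25 in *sim* and 1.48 in *sec*.

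The X-linked Rab35, a Rab of endocytic recycling, rose by less. It had 1289, 1321 and 1853 scaled reads in *sim* at stage 5, against 999.9, 1100.2 and 1009.8 at stage 2, and the stages did not overlap. Its change was 0.50 in *sim* and 0.54 in *mau*, close to the median of all genes, and 1.10 in *sec* (0.96, adjusted p = 0.0572, with the *sec* reference).

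Rab9 and Sec15 were among the members with large falls in all 3 species. Rab9, which works between late endosomes and the Golgi, had 7.57, 2.07 and 0 scaled reads in *sim* at stage 5, against 74.2, 81.0 and 103 at stage 2, a change of -4.86 (SE 0.75, adjusted p = 3.01e-05). In *mau* it had 5.69, 0 and 7.13 against 57.1, 54.4 and 45.4 (-3.81), and in *sec* the 3 stage 5 embryos held 2 reads against 200 reads at stage 2, a stage 2 to stage 5 ratio of 36.0 (95% counting interval 9.84 to 299). Stage 5 levels of Rab9 were thus near the limit of 1 read per embryo. Sec15, the exocyst subunit that binds Rab11, had 73.2, 101 and 105 scaled reads in *sim* at stage 5, against 665, 655 and 675 at stage 2. Its change was -2.84 (SE 0.15, adjusted p = 3.11e-10) in *sim*, -2.99 in *sec* and -3.05 in *mau*. Of the 6 exocyst subunits, 0 rose and 4 fell in *sim*, 0 and 3 in *sec*, and 0 and 4 in *mau*. Such counts by role stand against 49.0 to 50.3% higher and 33.3 to 34.6% lower of all genes.

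COPII genes were mostly lower at stage 5. All 6 fell in *sim*, 1 rose and 4 fell in *sec*, and 0 rose and 4 fell in *mau*. Sec24CD, a cargo-binding subunit of the inner coat, had 146, 123 and 141 scaled reads in *sim* at stage 5, against 863, 921 and 678 at stage 2 (-2.57, SE 0.14, adjusted p = 4.86e-10). Its change was -1.95 in *sec* and -2.25 in *mau*. Sec61alpha, the channel subunit of the translocon, changed by 0.49 in *sim* (adjusted p = 0.0129), -0.026 in *sec* and 0.071 in *mau*, the last 2 without a call. The call in *sim* was lost without stage 2 replicate 3 (0.40, adjusted p = 0.0526) or stage 5 replicate 3 (0.34, adjusted p = 0.0767). Its partner Sec63 fell by 1.75 in *sim*, 2.98 in *sec* and 1.54 in *mau* on the log2 scale.

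Of the Syntaxins, 1 of 8 was higher and 5 were lower in *sim*, 0 and 5 in *sec*, and 1 and 5 in *mau*. Syx13, an endosomal Syntaxin, had 68.2, 59.0 and 59.6 scaled reads in *sim* at stage 5, against 327, 354 and 334 at stage 2. Its change was -2.43 (SE 0.18, adjusted p = 1.12e-08) in *sim*, -2.47 in *sec* and -2.15 in *mau*. Syx5, the SNARE of traffic between the endoplasmic reticulum and the Golgi, changed by -1.77, -2.70 and -2.28 in *sim*, *sec* and *mau*. Vps16B, a member of the Vps16 family of tethering factors, had 15.2, 27.5 and 25.0 scaled reads in *mau* at stage 5, against 152, 113 and 158 at stage 2, and changed by -2.62 in *mau*, -2.76 in *sec* and -1.86 in *sim*. No embryo of stage 5 reached the level of a stage 2 embryo of the same species for any of these 3 genes.

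Endosomal Rabs and the ESCRT and retromer genes were mixed. Of the endocytic and recycling Rabs, 5 of 8 rose and 3 fell in *sim*, 3 and 2 in *sec*, and 3 and 1 in *mau*. Of the ESCRT genes, 3 of 8 rose and 2 fell in *sim*, 4 of 9 and 3 in *sec*, and 3 of 8 and 2 in *mau*, and of the 3 retromer genes 1 rose and 1 fell in each species. Vps35, the core of the retromer, had 1584, 1623 and 1745 scaled reads in *sim* at stage 5, against 1138, 1007 and 1029 at stage 2, and changed by 0.64 in *sim* (adjusted p = 2.76e-05), 0.54 in *mau* and 0.16 in *sec* (adjusted p = 0.229). Rab7, which marks late endosomes, changed by 0.38, 0.37 and 0.25 in *sim*, *sec* and *mau*, with no call in *mau* (adjusted p = 0.0816). The calls of Rab7 were lost without *sim* stage 2 replicate 2 (0.32, adjusted p = 0.0511) or stage 5 replicate 1 (0.29, adjusted p = 0.0624), and in *sec* without stage 2 replicate 2 or 3 or stage 5 replicate 1 or 2 (0.29 to 0.37, adjusted p = 0.0553 to 0.0984). Rab5, which marks early endosomes, was called in *sim* alone (-0.58, adjusted p = 0.0046), with -0.0073 in *sec* and 0.037 in *mau*.

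The second comparison asked which stage changes differed between species, by the interaction of species and stage. It called 10 of 63 members between *sim* and *mau* (26.5% of all genes), 16 of 66 between *sim* and *sec* (28.0%) and 13 of 60 between *sec* and *mau* (20.9%), so the members were near or under the share of all genes. The size of the interaction was large for a few of them: Syx6, Sec31, Sec23, Rab18 and Rab3-GEF. The pairs of species share parental embryos, so these interactions are not independent of each other.

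Syx6, a Syntaxin of the trans-Golgi network and endosomes, was deposited by mothers of all 3 species and nearly lost by stage 5 in *mau*. *mau* embryos had 0, 3.67 and 0 scaled reads at stage 5, 2 reads in all, against 267, 201 and 201 at stage 2, a change of -7.05 (SE 0.47, adjusted p = 3.74e-09). *sim* embryos had 90.9, 69.4 and 47.7 at stage 5 against 240.4, 260.2 and 277 at stage 2 (-1.93). In the table of *sim* and *sec*, *sec* embryos kept 469.7, 383 and 385 at stage 5 against 304, 387 and 299 at stage 2, a change of 0.32 with no call (adjusted p = 0.149). The interaction was 5.12 (SE 0.66, adjusted p = 8.75e-05) for *sim* minus *mau*, -2.24 for *sim* minus *sec*, and 7.79 (SE 0.81, adjusted p = 1.46e-05) for *sec* minus *mau*. The 3 species did not overlap at stage 5, in the order *sec*, *sim*, *mau*. The ratio of scaled reads was 58.8 for *sim* over *mau* (95% counting interval 16.0 to 490) and 202 for *sec* over *mau* (68.7 to 979). Its deposited rows in *D. simulans* r2.02 coordinates lay on chromosome arm 2R, with an exon at 7824676 to 7825131.

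The COPII genes Sec31 and Sec23 changed in opposite ways in *sec*. Sec31, with Sec13 the outer cage of the coat, had 97.6, 69.5 and 49.7 scaled reads in *sec* at stage 5, against 955, 959 and 769.9 at stage 2 (-3.66, SE 0.23, adjusted p = 7.94e-09). In *sim* it had 732, 606 and 902 at stage 5 against 1182, 1243 and 872 at stage 2 (-0.56, adjusted p = 0.0407, not called with the *sec* reference or without any of 7 single embryos, *sim* stage 2 replicates 1 and 2 and stage 5 replicates 1 and 2 among them), and in *mau* 577, 471 and 386 against 490.4, 519 and 459 (-0.05, no call). The stages did not overlap in *sec* and overlapped in *sim* and *mau*. The interaction was 3.10 (SE 0.33, adjusted p = 1.95e-05) for *sim* minus *sec* and -3.63 (SE 0.25, adjusted p = 4.48e-07) for *sec* minus *mau*.

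Sec23, the GTPase-activating subunit of the inner coat, was the COPII gene that rose in *sec*. It had 963, 965 and 734 scaled reads in *sec* at stage 5, against 412, 478 and 416 at stage 2 (1.02, SE 0.19, adjusted p = 0.000253). In *sim* it had 232, 137 and 174 against 422, 463 and 348 (-1.20), and in *mau* 144, 202 and 171 against 386, 391 and 351 (-1.13). The interaction was -2.22 for *sim* minus *sec* (adjusted p = 6.19e-05) and 2.17 for *sec* minus *mau* (adjusted p = 1.27e-05), and -0.18 for *sim* minus *mau* with no call. Sec23 lay on 3R, with a listed exon at 1370709 to 1371094, and Sec31 on 2R, with an exon at 5589909 to 5590028.

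**Figure D2:**
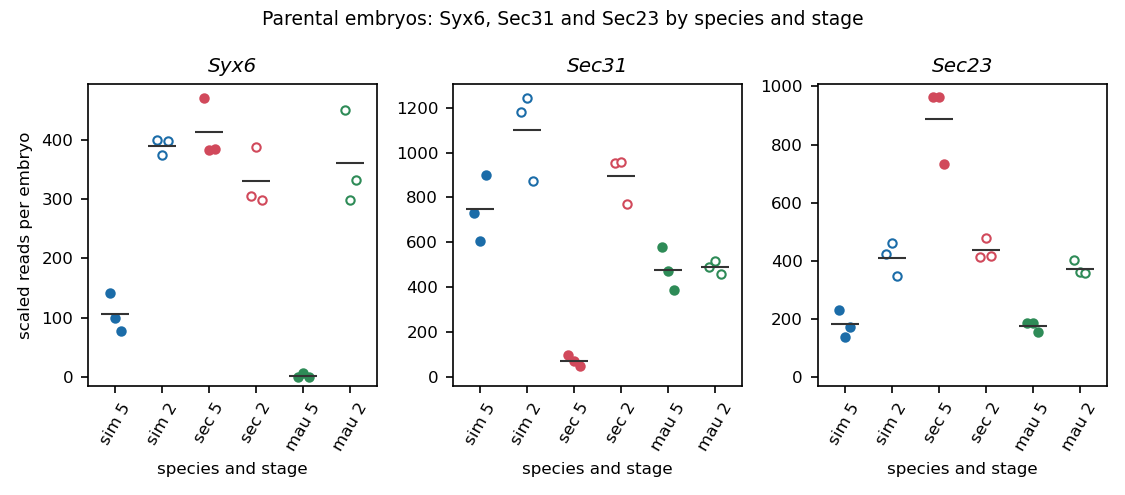
Scaled reads of Syx6, Sec31 and Sec23 in each parental embryo, with stage 5 as filled and stage 2 as open points and bars at the mean of 3 embryos. *sim* and *sec* are from their shared table and *mau* from the table of *sec* and *mau*, which was normalised separately. Syx6 is near 0 in *mau* at stage 5, and Sec31 falls and Sec23 rises in *sec*.

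Of the X-linked members, Rab18 fell less in *mau* and Rab3-GEF rose most in *sec*. Rab18, a Rab of the endoplasmic reticulum and lipid droplets, had 49.3, 84.4 and 71.3 scaled reads in *mau* at stage 5, against 195, 160.2 and 146 at stage 2 (-1.301). *sim* had 15.1, 16.6 and 5.96 against 192, 179 and 205 (-3.94), and *sec* 3.68, 0 and 3.55 against 110.2, 61.5 and 58.1 (-4.75). The interaction was -2.64 (SE 0.45, adjusted p = 0.000747) for *sim* minus *mau*, -3.07 for *sec* minus *mau* (adjusted p = 0.000266), and 0.92 for *sim* minus *sec* with no call (adjusted p = 0.382). Rab3-GEF, the exchange factor of the synaptic vesicle Rab Rab3, had 389, 550.2 and 387 scaled reads in *sec* at stage 5, against 3.84, 2.54 and 9.54 at stage 2 (6.27). *sim* had 16.1, 39.1 and 25.1 against 0.953, 2.39 and 2.07 (3.26), and *mau* 19.0, 38.5 and 32.1 against 1.56, 1.53 and 0.840 (3.70). The interaction was -3.01 (SE 0.60, adjusted p = 0.00223) for *sim* minus *sec*. For *sec* minus *mau* it was 2.07 (SE 0.63, adjusted p = 0.0318), a call lost without *mau* stage 2 replicate 1 or 2, *mau* stage 5 replicate 1, *sec* stage 2 replicate 1 or 2, or *sec* stage 5 replicate 2 (1.57 to 2.09, adjusted p = 0.0553 to 0.0739). As the sex of the parental stage 5 embryos was not given, the part of X dosage in these values was not tested.

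The level of Rab1, which controls traffic from the endoplasmic reticulum to the Golgi, rose in *sec* and was not called in *sim*. *sec* embryos had 864, 881 and 795 scaled reads at stage 5, against 566, 493 and 501 at stage 2 (0.70, SE 0.13, adjusted p = 0.000253). *sim* embryos had 553, 507 and 674 against 558, 522 and 643, with no call. The interaction for *sim* minus *sec* was -0.70 (adjusted p = 0.0139).

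The third comparison asked how parental species differed within a stage. At stage 2, 18 of 60 members were called between *sim* and *mau*, 9 in each direction (40.0% of all genes), and 14 of them also with the other reference genome (29.1%). Without *mau* stage 2 replicate 2 the count was 10. Between *sim* and *sec* 12 of 63 were called (34.8% of all genes), and all 12 were higher in *sim* (17.7% of all genes), 6 of them with both references (18.1%). Between *sec* and *mau* 18 of 57 were called (42.6%), 9 with both references (31.1%). At stage 5 the counts were 25 of 63 between *sim* and *mau* (49.7% of all genes, 18 with both references, 38.5%), 29 of 64 between *sim* and *sec* (47.7%, 19 with both, 29.4%) and 25 of 59 between *sec* and *mau* (33.6%, 20 with both, 25.5%).

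Differences in the maternal complement were of modest size. Vps28, an ESCRT-I subunit, had 96.5, 103 and 106 scaled reads in *sim* at stage 2, against 49.3, 36.8 and 43.7 in *mau*, a difference of 1.23 (SE 0.20, adjusted p = 0.000135), and 0.88 with the *mau* reference. Rab9 had 87.7, 95.6 and 120.0 in *sim* against 52.6, 43.8 and 30.3 in *sec* (1.26, SE 0.32, adjusted p = 0.00726). Syx16, an X-linked Syntaxin of the trans-Golgi network, had 65.7, 102 and 85.9 in *sim* against 51.0, 30.4 and 34.7 in *sec* (1.12, SE 0.26, adjusted p = 0.00468). Vps33B, a Sec1/Munc18 protein of the tethering complexes, had 285, 271 and 412 in *sec* against 148, 192 and 155 in *mau* (0.95, SE 0.16, adjusted p = 0.000112), and Syx8, an endosomal Syntaxin, had 121, 126 and 108 against 238, 196 and 224 (-0.88, SE 0.16, adjusted p = 0.000310). The embryos of the 2 species did not overlap for these 5 genes, which their choice required. The same difference can also be read from the other 2 tables, through the third species. It came to 0.04 for Vps28, 0.78 for Rab9, 0.67 for Syx16, 0.83 for Vps33B and -0.24 for Syx8, so the other tables did not bear out the size of the Vps28 difference. Vps36 was also higher in *sec* than in *mau* (0.91) and Sec31 higher in *sim* than in *mau* (0.83, adjusted p = 0.00102).

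Other stage 2 differences rested on a single embryo or on the reference. Rab21, an X-linked endocytic Rab, differed by 1.298 between *sim* and *mau* (adjusted p = 0.0205), but by 0.96 (adjusted p = 0.122) without *mau* replicate 2 and by 1.06 (adjusted p = 0.0857) without *sim* replicate 3. For Rab9 the difference between *sim* and *mau* was 0.70 (adjusted p = 0.0297). Its call was lost without replicate 2 or 3 of either species (0.57 to 0.73, adjusted p = 0.0565 to 0.121). Vps16B and Rab23, a Rab of planar cell polarity, were higher in *sim* than in *sec* by 0.82 and 0.63, but by 0.45 (adjusted p = 0.0595) and 0.61 (adjusted p = 0.0766) with the *sec* reference. Read through *mau*, the difference of Rab23 was -0.64, of the other sign. Rab8, a Rab of exocytosis, differed by -0.70 for *sec* minus *mau*, and by -0.35 (adjusted p = 0.152) with the *mau* reference. It was read from 1 variant site in this pair.

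At stage 5 single members differed by far more. Syx6 differed by 5.35 (SE 0.48, adjusted p = 1.57e-10) for *sim* minus *mau*, -1.99 for *sim* minus *sec* and 7.83 (SE 0.55, adjusted p = 2.95e-11) for *sec* minus *mau*. Sec31 differed by 3.39 (SE 0.39, adjusted p = 5.47e-07) for *sim* minus *sec* and -3.05 (SE 0.43, adjusted p = 3.93e-06) for *sec* minus *mau*. Sec23 differed by -2.31 for *sim* minus *sec* and 2.17 for *sec* minus *mau*, the opposite sign to Sec31. Rab18 differed by -2.43 for *sim* minus *mau* and -3.23 for *sec* minus *mau*, highest in *mau*. Vps28 had 177, 155 and 169 scaled reads in *sim* against 94.8, 60.6 and 73.1 in *mau* (1.14, SE 0.20, adjusted p = 1.50e-05), the same direction as in the maternal complement. Through *sec*, the other 2 tables gave -0.08 for Vps28 at stage 5, and the cause of the gap was not tested.

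Some stage 5 differences of the X-linked Rab3-GEF and Rab27, which had few reads in some species, and of the autosomal Rab1 were less certain. Rab3-GEF differed by -4.06 for *sim* minus *sec* (adjusted p = 1.04e-06). Its *sim* minus *mau* difference of -1.56 (adjusted p = 0.0453) was -0.34 (adjusted p = 0.682) with the *mau* reference. That call was also lost without *sim* replicate 1 or 3, *mau* replicate 2 or 3, *sim* x *mau* replicate 1 or 6, or *mau* x *sim* replicate 1 or 3 (-1.74 to -1.02, adjusted p = 0.0513 to 0.231). Rab27, a Rab of regulated secretion, had 11.4, 6.21 and 5.96 scaled reads in *sim* against 1.90, 3.67 and 0 in *mau*, a ratio of 4.33 (95% counting interval 1.27 to 23.0). Its difference of 1.84 (adjusted p = 0.023) was 1.21 (adjusted p = 0.153) without *mau* replicate 3 and 1.57 (adjusted p = 0.0881) without *sim* replicate 1. Rab1 differed by -0.56 for *sim* minus *sec*, but by -0.33 (adjusted p = 0.2) with the *sec* reference and by -0.47 (adjusted p = 0.0617) without *sim* replicate 2.

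In the hybrids both alleles share the same cell. A difference between alleles that follows the species is read as *cis*, and one between the parental and the hybrid ratio as *trans* regulation. A bias of the reference can also follow the species in both cross directions, so calls with both references are given too. At stage 2 most members had nearly balanced alleles. The allele shares of the hybrid mothers depended on the reference, as the median of all genes moved from about 0.09 to -0.06 in the crosses of *sim* and *mau* and the members' median moved with it, from 0.07 to -0.06 in (*mau* x *sim*) x *mau*. With the main reference the *sim* allele was higher in 20 of 60 members and lower in 2 in (*sim* x *mau*) x *sim* (29.7% and 10.8% of all genes), and higher in 16 and lower in 1 in (*mau* x *sim*) x *mau* (29.8% and 11.7%). It was higher in 18 of 63 and lower in 6 in (*sim* x *sec*) x *sim* (34.5% and 15.1%). The *sec* allele was higher in 15 of 57 and lower in 9 in (*sec* x *mau*) x *sec* (34.4% and 17.0%), and higher in 18 and lower in 8 in (*mau* x *sec*) x *mau* (34.3% and 17.5%). Calls in 1 direction with both references numbered 7 of 60 (19.2% of all genes), 5 of 60 (20.7%), 10 of 63 (23.5%), 15 of 57 (30.8%) and 15 of 57 (31.1%) in the same order.

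The members whose alleles differed in both reciprocal crosses and with both references were few. The *sim* allele was higher than the *mau* allele for Rab5, Rab9, Rab11 and Vps39, 4 of 60 (7.46% of all genes), and the *mau* allele for 0 of 60 (6.91%). The *sec* allele was higher than the *mau* allele for Rab30, Vps33B, Vps36 and Vps45, 4 of 57 (12.6%). The *mau* allele was higher for 7 of 57 (11.7%): Rab21, Sec10, Sec15, Syx5, Syx8, Vps16B and Vps28.

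Rab9 had the *sim* allele in excess in all 3 crosses that carried it. In (*sim* x *mau*) x *sim* the *sim* allele held 184 reads to 98, 65.2% (95% interval 59.6 to 70.6), and the single embryos had 63.6, 62.5 and 70.5% (0.90, SE 0.13, adjusted p = 1.51e-05). In (*mau* x *sim*) x *mau* it held 59.8%, with 55.4, 62.7 and 60.9% in the embryos (0.55). In (*sim* x *sec*) x *sim* it held 252 reads to 64, 79.7% (95% interval 75.1 to 83.9), with 79.8, 75.4 and 84.9% in the embryos (1.94, SE 0.16, adjusted p = 2.05e-07). The *sec* allele was in turn below the *mau* allele in (*sec* x *mau*) x *sec*, at 34.5%, with 34.0, 34.1 and 35.6% in the embryos (-0.86). No embryo of these 4 crosses crossed 50%. In (*mau* x *sec*) x *mau* the *sec* allele held 39.8%, not called with the *mau* reference (adjusted p = 0.123). The alleles thus ran in the order *sim*, *mau*, *sec*. The parental levels of *sec* and *mau* were not called (-0.076, adjusted p = 0.875), in a table where Rab9 had few reads.

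Among the *sec* and *mau* alleles, Vps33B and Rab30 had the largest mean difference of those called in both crosses with both references. Vps25 was higher with the *sec* reference (1.07 and 1.26), at 0.16 (adjusted p = 0.264) and 0.28 (adjusted p = 0.046) with the *mau* reference. The *sec* allele of Vps33B held 581 reads to 295 in (*sec* x *mau*) x *sec*, 66.3% (95% interval 63.1 to 69.4), with 65.4, 67.4 and 66.4% in the embryos (0.97, SE 0.082, adjusted p = 6.23e-09). In (*mau* x *sec*) x *mau* it held 68.4%, with 67.3, 69.0 and 68.7% (1.10). With the *mau* reference the 2 differences were 0.45 and 0.51, still called. Rab30, a Golgi Rab, had a *sec* share of 66.7%, with 69.8, 65.4 and 64.7% in the embryos of (*sec* x *mau*) x *sec*, and of 67.8% in the reciprocal cross. Its differences of 0.98 and 1.05 were 0.28 and 0.38 with the *mau* reference. The *sec* share of Vps36 was 60.3% and 65.0%, and that of Syx8 42.9% and 38.3%, in the direction of the parental difference for each.

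No reciprocal difference was called at stage 2. The test of the reciprocal difference called 0 of 60 members for *sim* and *mau* (0.202% of all genes) and 0 of 57 for *sec* and *mau* (0.317%) with limma. At an unadjusted p under 0.05 the counts were 3 of 60 (Rab19, Sec15 and Sec5; 353 of all genes, 6.49%) and 2 of 57 (Syx6 and Vps37B; 377, 7.46%). The differences lay between -0.32 and 0.42 and between -0.37 and 0.25, and a fit on the hybrid embryos alone called 0 and 0. Stage 2 RNA comes from a mother that is hybrid in either cross direction, and only her own mother's species and the male she was crossed to differed.

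**Figure D3:**
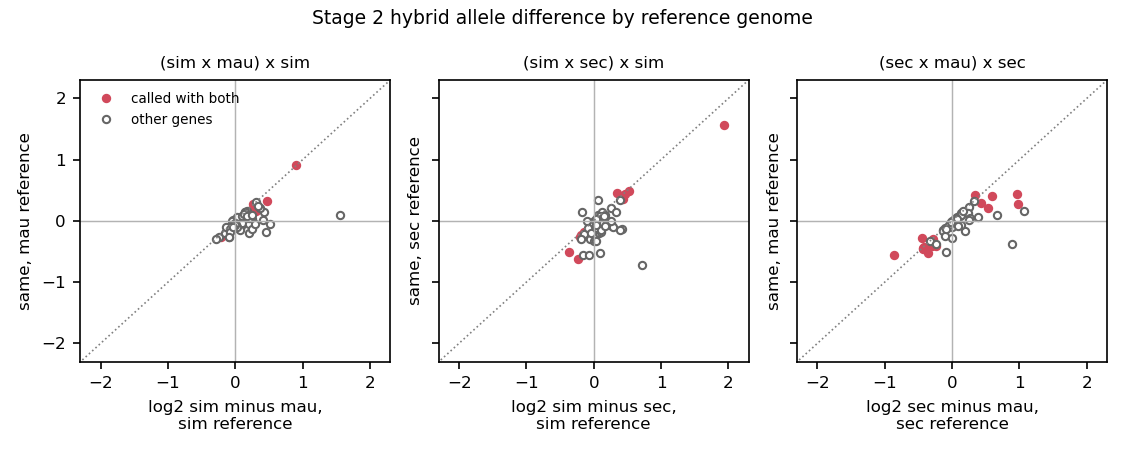
Log2 allele difference of each member in stage 2 hybrids with each of the 2 references, in (*sim* x *mau*) x *sim*, (*sim* x *sec*) x *sim* and (*sec* x *mau*) x *sec*. Points on the dotted line have the same value with both references, and of the 59, 59 and 57 members tested with both references (60, 63 and 57 with the main reference), 7, 10 and 15 were called in the same direction with both.

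For a few members the allele difference changed with the reference. Vps25, an ESCRT-II subunit, had a *sim* share of 74.6% in (*sim* x *mau*) x *sim* (425 reads to 145), a difference of 1.55 that was 0.10 with the *mau* reference. In the reciprocal cross the 2 values were 1.66 and 0.14. In (*sim* x *sec*) x *sim* they were 0.71 and -0.73, of opposite sign. RabX6 behaved likewise, at 0.90 with the *sec* reference and -0.37 with the *mau* reference in (*sec* x *mau*) x *sec*, and at 0.52 and -0.05 in (*sim* x *mau*) x *sim*. Rab21 had a *sim* excess of 0.52 in (*sim* x *sec*) x *sim*, lost without hybrid replicate 2 (0.48, adjusted p = 0.0690) or 3 (0.42, adjusted p = 0.0793). For RabX6 the hybrid allele shares carry no stable direction. Those of Vps25 against *mau* kept their sign at stage 2 but not their size. Against *sec* they changed sign.

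In stage 5 hybrids the maternal allele predominated for most members. It was higher in 44 of 63 members in *sim* x *mau* (74.8% of all genes), 41 of 63 in *mau* x *sim* (62.8%), 42 of 64 in *sim* x *sec* (73.1%), 40 of 59 in *sec* x *mau* (69.8%) and 41 of 59 in *mau* x *sec* (67.8%). The median maternal share of the members was 63.0%, 59.6%, 62.3%, 69.2% and 68.2% in these crosses, against 66.8%, 62.6%, 66.9%, 70.2% and 68.7% over all genes. Left-over maternal RNA and new transcription of the maternal allele cannot be told apart in these embryos. The maternal allele was higher in both reciprocal crosses for 31 of 63 members of *sim* and *mau* (49.9% of all genes) and 28 of 59 of *sec* and *mau* (49.2%). The latter include the X-linked Vps26 and Rab3-GEF. Their *mau* x *sec* differences of -3.64 and -3.06 were -0.55 and 0.46 without replicates 4 and 5. The reciprocal test called 46 of 63 members toward the maternal allele for *sim* and *mau* (73.4%), and 46 of 59 for *sec* and *mau* (74.7%), with 1 the other way, Rab26 (0.339%).

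Rab2, Rab11, Rab35 and Vps39 had over 90% of their reads from the maternal allele in all 5 crosses, 4 of 57 members (10% of all genes, 532 of 5310), and 34 of the 57 had over 50% in each (56.4%). In single crosses 6 to 10 members were over 90%, 9.38 to 16.9% of those tested, where all genes had 16.6 to 22.3%. Vps39, a subunit of the HOPS tether, showed the largest reciprocal difference. Its maternal allele held 97.2% (95% interval 96.5 to 97.8) in *sim* x *mau* (2290 *sim* reads to 65 *mau* reads), with 95.3%, 96.9% and 98.3% as the lowest, median and highest of 6 embryos. It held 98.6% in *mau* x *sim*, 97.4% in *sim* x *sec*, 99.1% in *sec* x *mau* and 94.8% in *mau* x *sec*. The reciprocal difference was 11.29 (SE 0.44, adjusted p = 2.58e-22) for *sim* and *mau* and 10.98 (SE 0.28, adjusted p = 4.42e-24) for *sec* and *mau*. The total level of Vps39 was not called between stages in *sim* (0.16) or *mau* (0.15) and rose in *sec* (0.90). Its listed exon lay on 3R at 7178915 to 7179083.

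**Figure D4:**
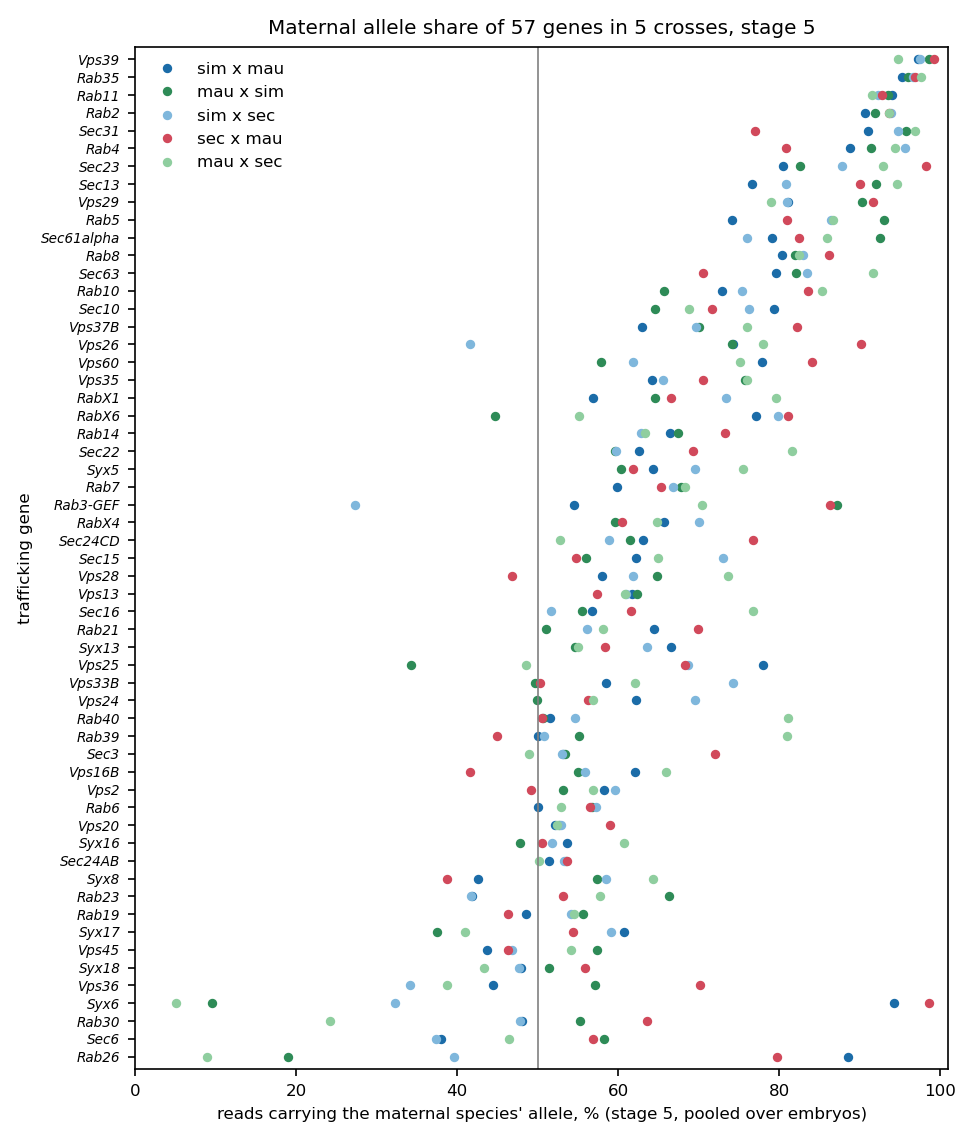
Share of reads from the maternal allele in stage 5 hybrids for the 57 members measured in all 5 crosses, in percent, with a line at 50% and X-linked genes taken from embryos labelled XX. Rab2, Rab11, Rab35 and Vps39 lie above 90% in every cross, and 34 of the 57 lie above 50% in every cross.

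Of these 4, Rab2, Rab11 and Rab35 had also risen at stage 5 in all 3 species. Rab11 had a maternal share of 94.1% in *sim* x *mau*, 93.5% in *mau* x *sim*, 92.2% in *sim* x *sec*, 92.8% in *sec* x *mau* and 91.5% in *mau* x *sec*. Rab2 had 90.6%, 91.8%, 93.8%, 93.6% and 93.6% in the same crosses. The X-linked Rab35, from embryos labelled XX, had 4482 *sim* reads to 226 *mau* reads in *sim* x *mau*, a maternal share of 95.2%, and 96.0%, 96.7% and 96.9% in the next 3. In *mau* x *sec* it had 97.6%, and 96.6% (842 *mau* reads to 30 *sec* reads) without replicates 4 and 5. Its reciprocal difference was 8.76 (SE 0.24, adjusted p = 1.36e-20) for *sim* and *mau* and 10.48 (SE 0.43, adjusted p = 8.68e-13) for *sec* and *mau*. Across the 57 members, the mean maternal share and the mean stage change had a Spearman correlation of 0.32, given as a description, since both come from the same libraries and references.

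Most COPII genes leaned to the mother, with the reciprocal difference called in 6 of 6 for *sim* and *mau* and 5 of 6 for *sec* and *mau* (all genes 73.4% and 74.7%). The X-linked Sec16 was among the 5, and without *mau* x *sec* replicates 4 and 5 its call was lost (0.76, adjusted p = 0.0855), which left 4 of 6. Sec31 had a maternal share of 91.0% in *sim* x *mau* (lowest, median and highest embryo 86.3%, 90.7% and 95.2%), 95.8% in *mau* x *sim*, 96.9% in *mau* x *sec* and 94.7% in *sim* x *sec*. In *sec* x *mau*, where the mother was of the species with little Sec31 at stage 5, it was lower, at 77.0% (95% interval 72.4 to 81.2), with 271 *sec* reads to 81 *mau* reads and 68.8%, 77.1% and 91.3% in the embryos. The reciprocal difference was 8.04 (SE 0.28, adjusted p = 1.46e-23) and 6.90 (SE 0.37, adjusted p = 2.68e-16). Sec23 had a maternal share of 80.4%, 82.6%, 87.8%, 98.2% and 92.9% in *sim* x *mau*, *mau* x *sim*, *sim* x *sec*, *sec* x *mau* and *mau* x *sec*. Its reciprocal difference was 4.22 for *sim* and *mau* and 9.47 (SE 0.20, adjusted p = 5.71e-26) for *sec* and *mau*. In *sec* x *mau* the *sec* allele of Sec23 held 5485 reads and the *mau* allele 99.

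By role, the reciprocal difference was called toward the maternal allele in 7 of 7 endocytic and recycling Rabs in both species pairs, with a median of 5.25 for *sim* and *mau* and 4.87 for *sec* and *mau*, and in 3 of 3 retromer genes in both, against 73.4% and 74.7% of all genes. It was called in 3 of 8 and 3 of 7 Syntaxins, with medians of 0.37 and 0.83. ESCRT genes had 6 of 8 and 7 of 8, secretory and Golgi Rabs 4 of 9 and 6 of 9, and the exocyst 4 of 6 and 3 of 4. Without *mau* x *sec* replicates 4 and 5 the counts for *sec* and *mau* were 6 of 7 endocytic and recycling Rabs, as Rab21 was lost (1.24, adjusted p = 0.0651), and 4 of 9 secretory and Golgi Rabs, as Rab39 and Rab40 were lost, and 42 of 59 members over all roles. Rab5 had reciprocal differences of 5.25 and 4.87, Rab7 of 1.63 and 1.98, Sec61alpha of 5.55 and 4.96, and RabX4 of 1.61 and 1.58. Rab1 and Rab4, a Rab of fast recycling, leaned to the *sim* allele in *sim* x *sec*, with *sim* shares of 73.2% and 95.6%. The reciprocal of this cross was not made, so mother and species cannot be told apart there.

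A smaller set followed the species and not the mother at stage 5. In both reciprocal crosses and with both references, the *sim* allele was higher than the *mau* allele for Rab26 and Syx6, 2 of 63 (4.43% of all genes), and the *mau* allele for Rab18, Rab23, Sec6, Syx8, Vps36 and Vps45, 6 of 63 (3.19%). The *sec* allele was higher than the *mau* allele for Rab26, Syx6 and Vps36, 3 of 59 (4.29%), and the *mau* allele for Rab18, Syx8 and Vps16B, 3 of 59 (3.84%).

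Syx6 was the clearest of these, and its allele order was that of the parental levels. In *sim* x *mau* the *sim* allele held 294 reads and the *mau* allele 18, a *sim* share of 94.2% (95% interval 91.2 to 96.4) with 90.2%, 94.7% and 98.4% as lowest, median and highest embryo (3.80, SE 0.30, adjusted p = 1.30e-13). In *mau* x *sim*, where *mau* was the mother, the counts were 189 and 20, a *sim* share of 90.4% (95% interval 85.9 to 93.9). In *sim* x *sec* the *sim* allele held 32.2% (95% interval 29.6 to 34.9), a difference of -1.07 with adjusted p = 1.52e-07. The *sec* allele held 1302 reads to 19 in *sec* x *mau*, 98.6% (95% interval 97.8 to 99.1), and 94.9% (95% interval 93.1 to 96.3) in *mau* x *sec*. Every stage 5 embryo of these 4 crosses of *mau* had less than 13% of its Syx6 reads from the *mau* allele. At stage 2 the shares of Syx6 lay between 48.5 and 53.7% in the RNA of the hybrid mothers.

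**Figure D5:**
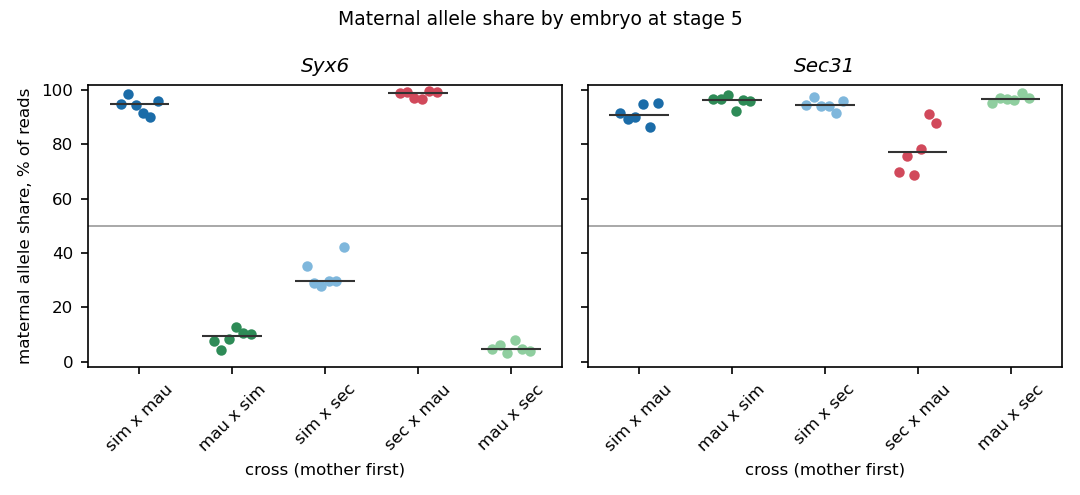
Share of Syx6 and Sec31 reads from the maternal allele in each of the 6 stage 5 embryos of 5 crosses, in percent, with bars at the median. The share of Syx6 was on opposite sides of 50% in reciprocal crosses, with 90.2 to 98.4% in *sim* x *mau* and 4.35 to 12.8% in *mau* x *sim*, while Sec31 stays above 68% in every embryo of every cross.

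Rab26, with no read in parental stage 2 embryos, had few reads of the *mau* allele in hybrids. The *sim* allele held 326 reads to 42 in *sim* x *mau*, 88.6% (95% interval 85.0 to 91.5), and 81.1% in *mau* x *sim*. The differences were 2.86 (SE 0.19, adjusted p = 1.66e-15) and 1.99. The *sec* allele held 79.7% in *sec* x *mau* and 91.1% in *mau* x *sec*, and the *sim* allele 39.6% in *sim* x *sec* (-0.65, adjusted p = 0.00754). The alleles ran in the order *sec*, *sim*, *mau*, as the parental levels did. Between *sec* and *mau* the *sec* allele was lower when *sec* was the mother, which gave the reciprocal difference of -1.17 (SE 0.41, adjusted p = 0.0107).

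Rab18 showed the *mau* allele above the other 2. In *sim* x *mau* embryos labelled XX the *sim* allele held 37 reads to 167, 18.1% (95% interval 13.3 to 23.9), with 16.8, 28.6, 14.9 and 14.8% in the 4 embryos (-2.07, SE 0.30, adjusted p = 1.18e-06), and in *mau* x *sim* 14.4% (-2.47). In *sec* x *mau* the *sec* allele held 10.5% (95% interval 6.16 to 16.6), a difference of -2.93 with adjusted p = 2.81e-05. In *mau* x *sec* it held 6.06%, 6 reads to 93 (-4.10), and 10.6%, 5 reads to 42, without replicates 4 and 5 (-2.88, adjusted p = 0.000315). None of the embryos labelled XX in these 4 crosses reached an even share. For *mau* x *sec* replicates 4 and 5 this carries no weight, as their median paternal X share was 0.394% and 1.96%. Rab18 lay on X, with a listed exon at 5199913 to 5200125.

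For the other X-linked members of *mau* x *sec*, replicates 4 and 5 decided many calls. Of 11 tested, 9 were called between alleles with all embryos labelled XX and 4 without replicates 4 and 5. The reciprocal counts were 9 and 5, and those of the parental against the hybrid ratio 9 and 5. The allele difference was -3.06 with and 0.46 without the 2 embryos for Rab3-GEF, -4.20 and -0.18 for Rab39, -3.81 and -0.08 for Sec16, and -1.44 and -0.06 for Rab21. For Rab35 it was -5.57 and -4.77, and for Rab10 -3.10 and -1.75.

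The last comparison set the parental ratio against the hybrid ratio, the measure of *trans* regulation, which at stage 5 also takes in any maternal RNA left in the hybrid. The pairs of reciprocal crosses share the parental embryos. At stage 2 the ratios differed for 15 of 60 members in (*sim* x *mau*) x *sim* (28.3% of all genes), 18 of 60 in (*mau* x *sim*) x *mau* (27.4%), 3 of 63 in (*sim* x *sec*) x *sim* (15.2%), 8 of 57 in (*sec* x *mau*) x *sec* (23.8%) and 9 of 57 in (*mau* x *sec*) x *mau* (22.6%), 53 calls in all and 31 without *mau* replicate 2. With both references 20 calls were made, 7 of 60 (15.8% of all genes), 9 of 60 (15.4%), 0 of 63 (3.87%), 2 of 57 (10.6%) and 2 of 57 (9.93%) in the same order. At stage 5 the contrast ran mostly toward the maternal allele in the hybrid: 34 of 63 lower in *sim* x *mau* (62.3%), 37 of 63 higher in *mau* x *sim* (55.6%), 31 of 64 lower in *sim* x *sec* (58.9%), 31 of 59 lower in *sec* x *mau* (60.2%) and 36 of 59 higher in *mau* x *sec* (54.6%). A lower value means that the first species' allele took a larger share in the hybrid than in the parents.

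Of the 18 members called between *sim* and *mau* at stage 2, 11 had no allele call in either cross, and for 7 of these the contrast was called in both crosses (7 of 60 members, 10.9% of all genes). They were Sec3, Sec61alpha, Syx5, Vps28 and the retromer genes Vps26, Vps29 and Vps35. Between *sec* and *mau* there were 5 of 57 (6.9%), Rab8, Rab11, Sec22, Vps13 and Vps24. Rab8, Sec22 and Vps24 were lower in *sec* (-0.70, -0.54 and -0.54), and no lower contrast of this pair was called with both references in either cross. Rab11 rested on 1 variant site in this pair, and Vps13 lost a call without single embryos, as given below. Vps28 had the largest difference of the 7. It was higher in *sim* than in *mau* by 1.23 at stage 2, while its *sim* allele held 210 reads to 224 in (*sim* x *mau*) x *sim*, 48.4% (95% interval 43.7 to 53.1), and 47.6% in (*mau* x *sim*) x *mau*. The parental minus hybrid contrast was 1.36 (SE 0.22, adjusted p = 0.000474) and 1.34 (SE 0.22, adjusted p = 0.000603). At stage 5 it was 0.67, lost without *mau* replicate 2 (0.52, adjusted p = 0.0635), and 2.03. These contrasts rest on the table of *sim* and *mau*, as the parental difference was near 0 through *sec*.

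The retromer genes differed by less. Vps26, Vps29 and Vps35 had parental differences of -0.53, 0.35 and -0.50, and contrasts of -0.46, 0.43 and -0.42 in (*sim* x *mau*) x *sim*. All 6 contrasts of these genes lost their call without *mau* replicate 2 (adjusted p = 0.0578 to 0.132). In (*sim* x *mau*) x *sim* that of Vps26 was also lost without *sim* replicate 1 or 3 or hybrid replicate 1, and in the reciprocal cross that of Vps35 without *mau* replicate 3 or *sim* replicate 2 (adjusted p = 0.0503 to 0.0611). For Vps29 the parental difference was lost without any of 8 single embryos. Vps35 was not called with the *mau* reference in either cross, nor Vps26 in (*sim* x *mau*) x *sim*. Read through *sec*, the parental differences were -0.02, 0.59 and -0.16.

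Vps13, a lipid transfer protein, had a contrast of 0.88 and 0.71 between *sec* and *mau* at stage 2 (adjusted p = 0.0109 and 0.0341). The second value lost its call without any of the 3 *mau* embryos, *sec* replicate 1 or 3, or hybrid replicate 1 or 3 (0.58 to 0.77, adjusted p = 0.0518 to 0.0988). Between *sim* and *sec*, Vps24, an ESCRT-III subunit, and Rab23 had 0.56 and 0.53, both not called with the *sec* reference. The call of Vps24 was lost without any of the 3 *sec* embryos, *sim* replicate 1 or 3, or hybrid replicate 2 or 3 (0.42 to 0.61, adjusted p = 0.0528 to 0.153). That of Rab23 was lost without *sec* replicate 3, *sim* replicate 1 or 2, or any of the 3 hybrid embryos (0.35 to 0.55, adjusted p = 0.0764 to 0.102). The contrast of Vps25 changed sign with the reference, at -1.14 with *sim* and 1.73 with *mau*.

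The stage 5 contrast of Syx6 was called in all 5 crosses although its alleles followed the species. It was 1.54 in *sim* x *mau* and 2.23 in *mau* x *sim*, -0.92 in *sim* x *sec*, and 1.92 and 3.69 in *sec* x *mau* and *mau* x *sec*. The parental species thus differed more than their alleles did in each cross, with few *mau* reads behind the contrasts with *mau*. In *sim* x *mau* the call was lost without *mau* replicate 1 or 3 or *sim* replicate 1 (1.17 to 1.32, adjusted p = 0.0605 to 0.0858), and in *sec* x *mau* without *mau* replicate 1 or 3 (1.43, adjusted p = 0.0685 and 0.0711) and with the *mau* reference (1.46, adjusted p = 0.0504). Vps39 and Sec23 had the largest contrasts in *sim* x *sec*, -6.04 (SE 0.48, adjusted p = 2.64e-10) and -5.15 (SE 0.26, adjusted p = 1.07e-13), as their *sim* alleles held 97.4% and 87.8% of hybrid reads. For Sec23 the parental difference ran the other way (-2.31). Rab23 had 1.14 and 1.79 between *sec* and *mau*, where its parental difference of 1.33 was -0.53 through *sim*.

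Classes were then set from the 95% intervals of the parental and the hybrid share against a band of 49 to 51%, required with both references. At stage 2, 137 combinations of a member and a cross could be classed, and 162 were left out because the references gave different classes. Of the 137, 67 were *trans* (48.9%, against 37.1% of all genes), 31 conserved (22.6% against 15.7%), 19 *cis* (13.9% against 22.4%), 11 compensatory (8.03% against 5.48%), 7 *cis* + *trans* (5.11% against 15.6%) and 2 *cis* x *trans* (1.46% against 3.67%). At stage 5, 208 were classed and 102 left out. Of the 208, 47 were *cis* x *trans* (22.6% against 25.3%), 46 *cis* + *trans* (22.1% against 28.8%), 39 *cis* (18.8% against 13.8%), 39 compensatory (18.8% against 16.2%), 23 *trans* (11.1% against 9.0%) and 14 conserved (6.73% against 6.83%). Rab9 was *cis* in both crosses of *sim* and *mau* at stage 2, Vps28 was *trans* there, and Rab18 was *cis* in both at stage 5. Syx6 at stage 5 was *cis* in *sim* x *mau* and *cis* + *trans* in *mau* x *sim* and *sim* x *sec*. The intervals cover counting error only, so the classes do not carry the spread between embryos. The cases are not separate genes, as a member can count in each cross. *Trans* and conserved need a hybrid interval that overlaps the band, and fewer reads make it wider. The test over embryos showed no *trans* excess of the members at stage 2. With both references the contrast was called in 0 to 15.0% of members and 3.87 to 15.8% of all genes, lower for the members in each cross. The paper limited its stage 5 classes to genes with only or mostly zygotic expression, because maternal RNA remains at that stage. No such limit was set here, so the stage 5 classes also take in maternal RNA left in the hybrid and are not comparable to the paper's.

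Rab11 between *sec* and *mau* rested on 1 variant site. Its parental difference was 3.31 at stage 5 and 2.44 at stage 2, whereas the other 2 tables gave -0.06 for *sim* minus *mau* and -0.18 for *sim* minus *sec* at stage 5. Through *sim*, *sec* minus *mau* would be 0.12 at stage 5, a gap of 3.20, and the gap at stage 2 was 2.52. Over the members the median gap, without sign, was 0.279 at stage 5 and 0.201 at stage 2, and it passed 1 for 5 of 57 and 3 of 56. The next largest after Rab11 were 1.99 for Syx16 and 1.85 for Rab23 at stage 5, and gaps over 1 were also found for Rab23 at stage 2 (1.27), RabX6 at stage 5 (1.19) and Vps28 at both stages (-1.22 and -1.18). The parental minus hybrid contrast of Rab11 in this pair, 2.10 and 2.04 at stage 2, carries the same single site, as its hybrid shares were close to even (55.5% and 56.9% for the *sec* allele).

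Genes of the same pathway outside the symbol rule, a list of 50 that holds COPI, clathrin, SNARE and Arf genes among others, were read for comparison. Of 41 tested, 19 rose and 14 fell in *sim*, 15 and 13 of 40 in *sec*, and 20 and 14 of 41 in *mau*. At stage 5 the reciprocal difference was called in 35 of 41 for *sim* and *mau* and 32 of 36 for *sec* and *mau*, against 46 of 63 and 46 of 59 of the members. At stage 2 it was called in 1 of 41 and 0 of 37. The difference between the 2 lists was not tested.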

How the data were processed

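Single-embryo poly(A) libraries were made by the authors, who trimmed reads with Cutadapt 1.7.1, aligned them with TopHat2 2.0.13 to each species' genome (*D. simulans* r2.02, *D. sechellia* r1.3 and *D. mauritiana* MS17 updated with the line's own variants), called variants with GATK, and assigned reads to alleles with R scripts. The deposited signal per gene, allele, embryo and reference is a sum of reads over variant sites, scaled by upper quantile normalization within a pair of species, for orthologous genes only. The deposited number of variant sites per gene was used as a description only. Each value was a whole multiple of 1 read's worth within a tolerance of 0.01 in all 162 combinations of embryo, pair and reference (100% of values), so reads could be recovered. Exon positions are those listed in the deposited rows.

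Genes with a mean signal of at least 5 were tested with limma 3.58.1 in R 4.3.3 on log2(value + 1), with a trended prior and two-sided tests, adjusted over all genes with the Benjamini-Hochberg method. Fold changes on this scale understate the change of low genes. Stage fits used the parental embryos of a pair, species and allele fits the parental and hybrid embryos of a pair and stage, and the 2 alleles of a hybrid embryo were kept as a block (within-embryo correlation 0.728 to 0.742 at stage 2 and 0.243 to 0.286 at stage 5). The main reference was *sim* for the pairs with *sim* and *sec* for the pair *sec* and *mau*. Class intervals were beta intervals with a prior of 0.5 per allele, and intervals cover counting error only, since reads from PCR are not independent molecules. Alternatives were the other reference, TMM, edgeR 4.0.16 and DESeq2 1.42.0 on recovered reads, a pseudocount of 5, a minimum of 20 or none, a replicate block, parental or hybrid embryos alone, and leaving out each embryo. Calls required with both references, and X-linked values without 2 *mau* x *sec* embryos, were chosen after seeing the data.

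The members and gene lists were chosen with earlier results of these data known. Genes named with values were those always listed (Rab1, Rab5, Rab7, Rab11, Sec23, Sec61alpha, Vps35 and Syx5) and, for each comparison, the 2 to 6 members with the largest called difference, for species only where the groups did not overlap and for alleles only where every cross of a pair was called in the species direction, and the 4 with the largest change between references. They came to 37 genes, and members named beyond them were chosen after their values were seen. The scripts were tested on simulated data.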

Additional observations from a re-analysis of the deposited data

Results flagged for a closer look

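Of 62 groups of 4 to 6 embryos checked for a share far from the others, 4 were set apart, and chance sets apart about 1 in 20. Rab11 had a *sim* share of 92.1% in 1 *sim* x *mau* embryo at stage 5, against a median of 94.3%. Rab18 had a *sim* share of 28.6% in 1 *sim* x *mau* embryo of the 4 labelled XX, against a median of 15.9%. Rab5 had a *sec* share of 22.5% in 1 *mau* x *sec* embryo, against a median of 11.3%. Sec31 had a *sim* share of 7.88% in 1 *mau* x *sim* embryo, against a median of 3.57%. None of the 4 embryos lay on the other side of 50%.

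The stage change differed between species for Syx6 by 5.12 (*sim* minus *mau*) and 7.79 (*sec* minus *mau*), for Sec31 by 3.10 (*sim* minus *sec*) and -3.63 (*sec* minus *mau*), for Rab18 by -2.64 (*sim* minus *mau*) and for Rab3-GEF by -3.01 (*sim* minus *sec*), each called by limma as an interaction of species and stage. Sec31 and Syx6 lie on autosomes, and Rab18 and Rab3-GEF on the X.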

How the results depend on the processing

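Of 204 alternatives of the member counts, 34 moved a count by over 1.5 times. Members higher at stage 5 in *mau* numbered 17, 8 with TMM and 9 with edgeR. Members called between species numbered 25 for *sim* and *mau* at stage 5, 16 when X-linked genes were read from all embryos. For *sim* and *sec* they numbered 12 at stage 2, 7 with DESeq2, 7 with edgeR and 6 with both references, and 29 at stage 5, 19 with both references. For *sec* and *mau* at stage 2 they numbered 18, 9 with both references, 11 with edgeR and 11 with the parental embryos alone. Allele calls at stage 2 numbered 113 over the crosses, 52 with both references, and parental minus hybrid calls 53, 20 with both references. On the recovered reads, edgeR called 14 members higher and 36 lower in *sim* and 16 and 32 in *sec*.

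Replicate numbers did not pair the embryos: correlations of same-numbered embryos lay between -0.158 and 0.547, and only 1 or 2 of 3 correlated best with their own number. With the replicate block, members called at stage 2 numbered 7 for *sim* and *sec* and 11 for *sec* and *mau*, and 88 of 95 named values kept their call.

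The classes moved most. With a band of 45 to 55%, stage 2 held 5 *cis*, 41 *trans*, 1 *cis* + *trans*, 0 *cis* x *trans*, 0 compensatory and 159 conserved cases. Stage 5 held 25 *cis*, 27 *cis* + *trans*, 22 *cis* x *trans*, 65 compensatory and 55 conserved. Without the requirement on both references, stage 2 held 43, 114, 24, 8, 42 and 68 cases of these 6 classes, and stage 5 held 35 *trans*, 75 compensatory and 28 conserved.

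Without single embryos, counts ranged as follows: 104 to 116 allele calls at stage 2 and 231 to 238 at stage 5, 31 to 73 parental minus hybrid calls at stage 2 (lowest without *mau* replicate 2) and 169 to 187 at stage 5, 0 to 0 reciprocal calls at stage 2 and 91 to 95 at stage 5, and 31 to 43 interactions. Species calls ranged over 10 to 22 and 17 to 25 for *sim* and *mau* at stages 2 and 5, 9 to 17 and 21 to 29 for *sim* and *sec*, and 12 to 20 and 18 to 28 for *sec* and *mau*. Members higher and lower at stage 5 ranged over 17 to 18 and 29 to 31 in *sim*, 16 to 19 and 25 to 28 in *sec*, and 16 to 18 and 22 to 25 in *mau*. Of 155 named values, 22 lost their call without some embryo and 0 turned round.

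Directions turned with the other reference for 8 of 154 named values: RabX6 alleles at stage 2 (-0.019, -0.37 and -0.050), Vps25 alleles in *mau* x *sim* at stage 5 (-0.86) and (*sim* x *sec*) x *sim* at stage 2 (-0.73), Vps25 parental minus hybrid at stage 2 (1.697 and 1.73), and Sec61alpha between *sec* and *mau* at stage 2 (0.0072). With all embryos for X-linked genes Rab18 alleles in *sec* x *mau* turned to 0.16, and without *mau* x *sec* replicates 4 and 5 Rab3-GEF alleles turned to 0.46. The cause was not tested. Depth limits the stage 5 values of Rab9, Rab27 and *mau* Syx6 to a few reads. The table of *sec* and *mau* reads Rab11 from 1 variant site, and likewise Rab3, Rab7, Rab8 and Sec61beta.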
